A study of Mus musculus with 6 samples.

Results

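The genes described here are the potassium channel genes of the mouse, taken as the protein-coding genes whose symbol begins with Kcn. The rule left out Kcne2 and Kcnj13, and 92 genes remained of the 54838 in the table of counts. They were read as subfamilies by symbol: Kcna (8 genes), Kcnb (2), Kcnc (4), Kcnd (3), Kcnj (14), Kcnk (14), Kcnm (5), Kcnn (4), Kcnq (5) and 33 others, the largest of which are the 8 Kcnh genes. RNA was sequenced from the hippocampus of 6 female FVB/NJ mice at the age of 7 months, with 1 library per mouse. There were 3 wild-type mice and 3 of the Tg(ORAI1)Ibd line. Tg(ORAI1)Ibd mice carry a human ORAI1 cDNA, which encodes a calcium channel of the plasma membrane, in the Thy1.2 expression cassette, which drives expression in neurons, in a line made by pronuclear injection. The wild-type mice lack the transgene, and the sources used here name no treatment for either genotype. Libraries held 37414241 to 52497799 counted fragments, of which 0.528 to 0.573% fell on the Kcn genes.

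Potassium channels let potassium out of the cell and so set the resting potential, end the action potential and limit repetitive firing. The voltage-gated (Kv) channels are tetramers of Kcna, Kcnb, Kcnc, Kcnd, Kcnq or Kcnh subunits, to which silent subunits (Kcnf, Kcng, Kcns, Kcnv) and auxiliary subunits (Kcnab, Kcnip, Kcne) can be added. Inward rectifiers (Kcnj) and two-pore channels (Kcnk) act near rest, while Kcnm, Kcnn and Kcnt channels open with intracellular calcium or sodium. In the hippocampus Kv1 channels sit mainly in axons, Kv2 channels in somata and Kv4 channels in dendrites of pyramidal neurons.

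As a check of the labels, Orai1 and Thy1 were read first. Orai1 stood at 7.18, 7.16 and 8.08 CPM (counts per 1000000 counts of the scaled library total) in the wild-type and at 313, 331 and 316 CPM in the transgenic libraries. Thy1, the gene whose promoter is in the cassette, stood at 621 to 675 CPM in the wild-type and at 3572 to 4369 CPM in the transgenic libraries. Each library matched its genotype. Deviations from the genotype means over 11191 genes correlated at 0.40 between transgenic replicate 1 and wild-type replicates 1 and 2, at 0.54 and 0.39 between wild-type replicate 3 and transgenic replicates 2 and 3, and at -0.59 to -0.25 for the other pairs, so that the libraries also varied along a line that crosses the genotypes. Fragments of the human cDNA can be counted on the mouse gene only where they align to it, so the Orai1 values are not a measure of the whole transgene transcript.

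For a view of the sequences beside the counts, promoters of 3 genes are shown: Kcna4 and Kcnh7, the Kcn genes with the smallest p between genotypes, and Kcnmb4, the one with the smallest p among those that were higher in transgenic mice. Each is the RefSeq sequence of 300 bases in the GRCm38.p6 build, from 250 bases before to 50 bases after the transcription start, written 5′ to 3′ on the strand of the gene. Capitals mark the GC box, GGGCGG or its reverse complement CCGCCC, which is the core of sites for Sp-family transcription factors. The Kcna4 promoter lies at chr2:107290339-107290638 on the plus strand, the Kcnh7 promoter at chr2:63184238-63184537 on the minus strand and the Kcnmb4 promoter at chr10:116473474-116473773 on the minus strand.

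Kcna4: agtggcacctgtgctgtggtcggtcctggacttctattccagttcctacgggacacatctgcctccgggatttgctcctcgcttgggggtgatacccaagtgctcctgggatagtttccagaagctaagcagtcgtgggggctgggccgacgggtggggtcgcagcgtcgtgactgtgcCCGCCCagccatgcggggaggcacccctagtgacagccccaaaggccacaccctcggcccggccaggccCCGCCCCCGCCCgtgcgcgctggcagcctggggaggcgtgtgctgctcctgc

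Kcnh7: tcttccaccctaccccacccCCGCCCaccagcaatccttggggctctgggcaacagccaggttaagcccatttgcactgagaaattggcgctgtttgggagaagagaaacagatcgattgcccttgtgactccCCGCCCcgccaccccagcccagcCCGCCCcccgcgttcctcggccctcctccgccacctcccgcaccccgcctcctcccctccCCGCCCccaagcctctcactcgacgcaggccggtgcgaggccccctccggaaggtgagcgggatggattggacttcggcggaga

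Kcnmb4: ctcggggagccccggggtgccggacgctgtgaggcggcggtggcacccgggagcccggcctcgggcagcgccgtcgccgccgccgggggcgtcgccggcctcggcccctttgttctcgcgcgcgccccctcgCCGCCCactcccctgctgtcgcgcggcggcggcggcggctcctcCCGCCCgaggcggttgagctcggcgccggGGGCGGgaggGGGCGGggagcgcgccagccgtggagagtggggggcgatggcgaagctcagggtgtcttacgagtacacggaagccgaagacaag

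The 3 sequences hold 3, 4 and 4 GC boxes and 20, 21 and 48 CpG dinucleotides in the order shown, against a median of 7 CpG over all 32851 promoters of the table. GC content was 67.7% for Kcna4, 67.7% for Kcnh7 and 79.0% for Kcnmb4. RefSeq promoters were found for 67 of the 92 genes, 91 in all since some genes have several starts. A GC box on either strand was found in 48.4% of these 91 and in 35.7% of all promoters. The TATA box, TATAAA or TTTATA, was found in 4.4% of the Kcn promoters and in 13.6% of all. The core of the sites of NFAT, a factor activated by calcium through calcineurin, GGAAA or TTTCC, was found in 56.0% of the Kcn promoters and in 61.3% of all. These letters were counted on both strands without regard to overlap, and a match does not show that a factor binds there.

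In the wild-type hippocampus the 92 genes covered a wide range of levels per length. Levels are given as FPKM, fragments per kilobase of exon per 1000000 fragments counted. At least 1 FPKM on average was reached by 65 genes and at least 10 FPKM by 29, with a median of 3.38 FPKM. Summed over the genes, the levels were 865 to 877 FPKM in the wild-type and 848 to 904 FPKM in the transgenic libraries, so that the 2 ranges overlapped. The 10 genes with the highest means held 48.1% of the wild-type sum.

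The highest level was that of Kcnab2, the cytoplasmic beta 2 subunit of Kv1 channels, with 103 ± 4.41 FPKM (SD, n = 3). Kcnj10 (Kir4.1), the main inward rectifier of astrocytes, followed at 55.4 ± 6.58 FPKM, and Kcnip2, an auxiliary subunit of Kv4 channels, stood at 50.7 ± 5.001 FPKM. The wild-type values of Kcnab2 lay above those of Kcnj10, while those of Kcnj10 and Kcnip2 overlapped. Kcnk1 (34.2 ± 2.15 FPKM), a two-pore channel, and Kcnj3 (32.1 ± 1.55 FPKM), a subunit of the G protein-gated channel, came lower, and their order was not resolved, since they overlapped. Kcnj4 (27.0 ± 0.755 FPKM), an inward rectifier of neurons, lay below them. Kcnd2 (24.4 ± 1.59 FPKM) and Kcnj9 (23.9 ± 2.32 FPKM), whose ranges overlapped, were also among the first 10.

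**Figure D1:**
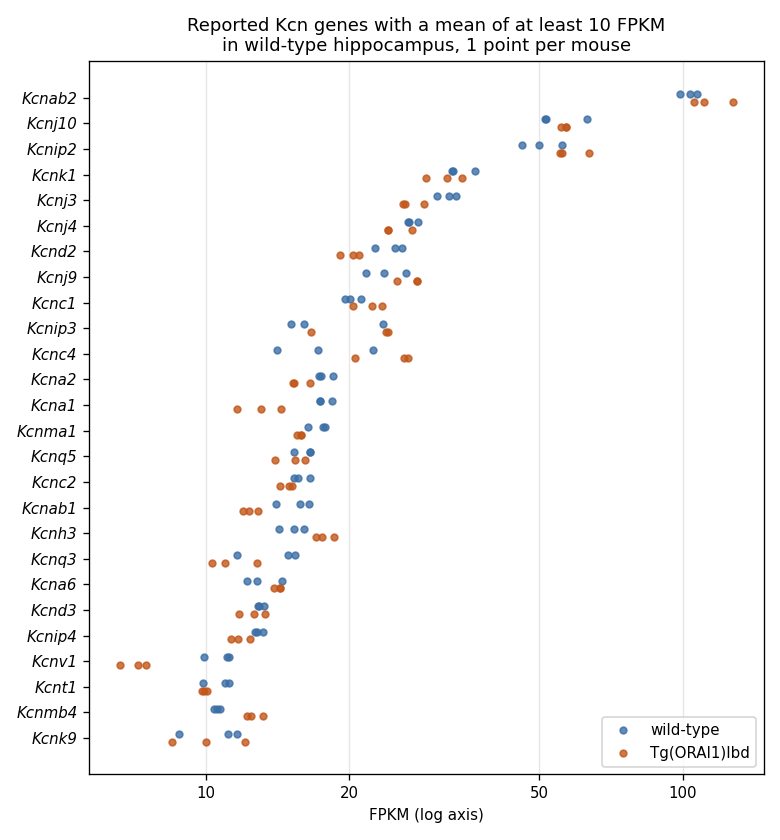
Levels of 26 of the 29 Kcn genes with a mean of at least 10 FPKM in wild-type hippocampus, on a logarithmic axis, with 1 point per mouse and the genes in the order of their wild-type mean. Kcnab2 stood apart at 103 FPKM, and most neighbours in the order overlapped.

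By subfamily, the highest wild-type level among the Kcna genes was that of Kcna2 (17.7 ± 0.672 FPKM), which overlapped with that of Kcna1 (17.7 ± 0.574 FPKM). Both code for pore subunits of axonal Kv1 channels. Among the others, Kcnd2 stood at the 24.4 FPKM given above, Kcnma1, the pore of the big-conductance calcium-activated channel, at 17.3 ± 0.749 FPKM, and Kcnn2, a small-conductance calcium-activated channel, at 9.71 ± 0.123 FPKM. Kcnma1 and Kcnn2 are genes of the calcium-activated channels, and their wild-type ranges did not overlap.

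The share that each subfamily held of the summed Kcn FPKM was compared as a description. Kcna genes held 6.65 to 6.88% in the wild-type and 5.54 to 5.84% in the transgenic libraries. Kcnc genes, the Kv3 channels of fast-spiking neurons, held 9.44 to 10.1% in the wild-type and 11 to 11.3% in the transgenic libraries. These 2 subfamilies were therefore apart in opposite directions. The ranges were also apart, with lower transgenic shares, for Kcnd (4.42 to 4.71% against 3.94 to 4.29%), Kcnk (7.85 to 8.01% against 7.24 to 7.71%) and Kcnn (1.86 to 1.92% against 1.66 to 1.83%). The shares of Kcnb, Kcnj, Kcnm, Kcnq and the other genes overlapped between genotypes. Since shares add up to a whole, a lower share of one subfamily raises the rest.

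**Figure D2:**
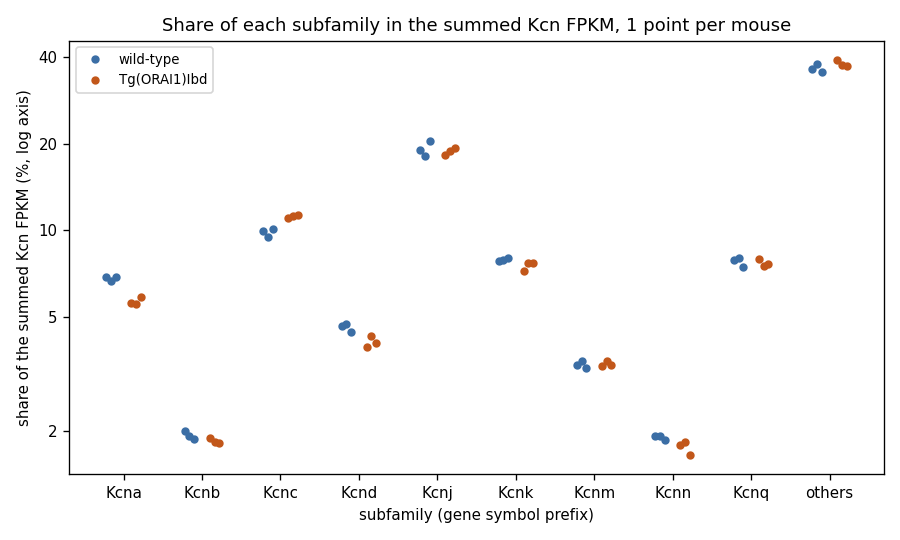
Share of each subfamily in the summed FPKM of the 92 Kcn genes, in percent on a logarithmic axis, with 1 point per mouse. The Kcna shares of transgenic mice lay below and the Kcnc shares above those of wild-type mice.

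Between genotypes, 81 of the 92 genes had enough counts to be tested, and 11 of the 81 passed a threshold of 0.05 on the adjusted p of edgeR (quasi-likelihood test, adjusted by Benjamini-Hochberg over all 19087 genes tested). That is 13.6%, against 7.1% of all genes tested. Lower in transgenic mice were 9 genes (11.1%, against 4.0% of all genes): Kcna4, Kcnh7, Kcnv1, Kcnb2, Kcna1, Kcnab1, Kcnj3, Kcnd2 and Kcng3. Higher were 2 genes (2.47%, against 3.1% of all genes), Kcnmb4 and Kcng1. Of these 11, 10 belong to voltage-gated or calcium-activated channels, and 1, Kcnj3, to the inward rectifiers. Voltage-gated and calcium-activated channel genes also made up most of the 81 tested, so this split was not read as a result. The median log2 fold change, transgenic over wild-type, was -0.07 over the 81 genes and -0.01 over all genes tested.

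At an unadjusted p under 0.05 there were 28 of the 81 genes (34.6%, against 27.8% of all genes), 20 of them lower and 8 higher. In 28 of the 81 genes (34.6%) all 3 transgenic CPM lay on one side of all 3 wild-type CPM, against 34.9% of all genes, so this share was near the background. With 3 against 3 mice an exact two-sided permutation test, which was not used here, cannot give a p below 0.1. The smaller p-values of single genes therefore rest on the count model of edgeR. The number of calls rested on single mice, over all genes as well as over the Kcn genes. Without wild-type replicate 1 only Kcna4 passed (1.23%, against 0.399% of all genes). Without wild-type replicate 2 there were 3 genes (3.7%, against 0.487%), without transgenic replicate 2 there were 4 (4.94%, against 0.978%) and without transgenic replicate 3 there were 3 (3.7%, against 0.552%). Without wild-type replicate 3 there were 10 (12.3%, against 5.28%) and without transgenic replicate 1 there were 13 (16%, against 5.93%). In bulk tissue, fewer cells that express a gene and less RNA per cell cannot be told apart.

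**Figure D3:**
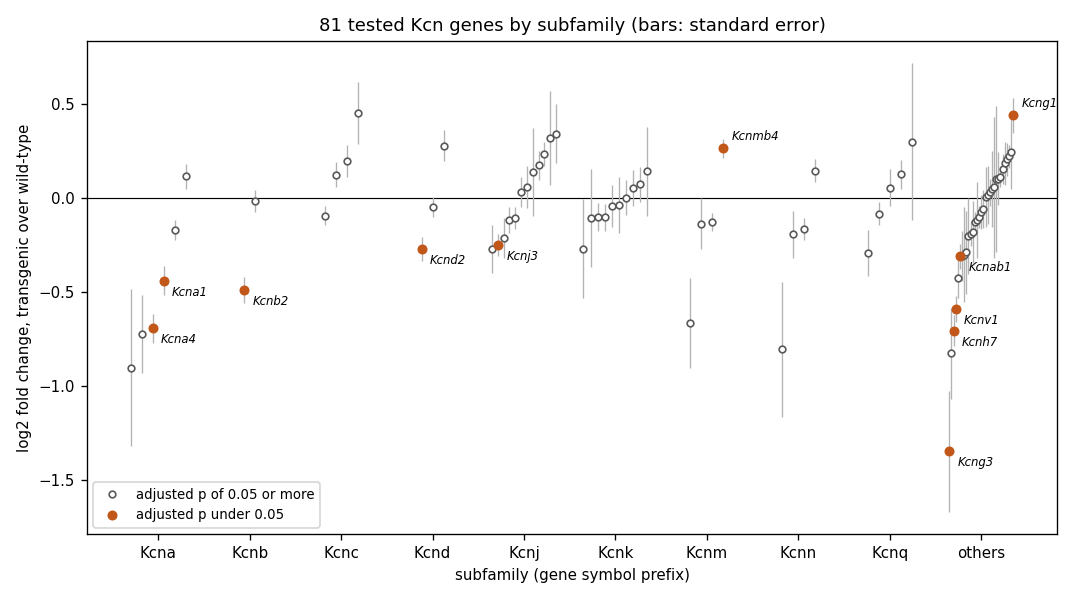
Log2 fold change, transgenic over wild-type, of the 81 tested Kcn genes by subfamily, with bars for the standard error and filled points for an adjusted p under 0.05. Filled points lie from -1.35 for Kcng3 to 0.44 for Kcng1, and 9 of the 11 are below 0.

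Among the 6 tested Kcna genes, which code for pore subunits of the Kv1 channels, 2 fell and none rose in edgeR, and 5 of the 6 log2 fold changes were negative. Kcna4 (chr2:107290639-107298502, plus strand) codes for Kv1.4, a Kv1 subunit that inactivates fast. Kcna4 stood at 35.5, 37.1 and 39.5 CPM in the wild-type and at 21.3, 22.6 and 25.3 CPM in the transgenic libraries. All 3 transgenic values lay well below the lowest wild-type value. Kcna4 fell by 38.2%, a log2 fold change of -0.69 ± 0.0771 (SE) with an adjusted p of 0.00712 in edgeR. It was the only Kcn gene that passed in each of the 6 fits without 1 mouse, with adjusted p between 0.0108 and 0.0443.

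Kcna1 (chr6:126640397-126646384, minus strand) codes for Kv1.1, an axonal subunit whose loss causes episodic ataxia and seizures. Kcna1 stood at 88.0, 83.0 and 82.6 CPM in the wild-type and at 62.9, 55.5 and 68.6 CPM in the transgenic libraries. The lowest wild-type value was above the highest transgenic value. Kcna1 fell by 26.3%, a log2 fold change of -0.44 ± 0.0776 (SE) with an adjusted p of 0.0271 in edgeR. Kcna1 did not pass without wild-type replicate 1 or 2 or transgenic replicate 2 or 3, with adjusted p of at most 0.130 in edgeR. Kcna2, the subunit of Kv1.2, did not pass, with an adjusted p of 0.0929 in edgeR. It stood at 221, 207 and 205 CPM in the wild-type and at 198, 181 and 182 CPM in the transgenic libraries, and these ranges did not overlap. Without transgenic replicate 1 the adjusted p of Kcna2 was 0.0475. Kcna5 had the largest negative log2 fold change among the genes that did not pass, -0.90 ± 0.417 (SE), at 0.898 to 2.68 CPM in the wild-type and 0.588 to 1.09 CPM in the transgenic libraries, which overlapped. That value rested on wild-type replicate 2, without which it was -0.36. Kcna3, a Kv1 subunit also known from lymphocytes, stood at 5.03, 4.62 and 3.73 CPM in the wild-type and at 3.47, 2.12 and 2.48 CPM in the transgenic libraries, which did not overlap. Kcna3 did not pass in edgeR (log2 fold change -0.72 ± 0.207 SE, adjusted p = 0.0742). It passed with DESeq2 (adjusted p = 0.0275), with no filter (0.0456), with GC offsets and the replicate block (0.0404) and without transgenic replicate 1 (0.0353). In the other alternative fits Kcna3 did not pass. Kcna6 was the only tested Kcna gene with a positive log2 fold change, 0.11 ± 0.0653 (SE, adjusted p = 0.299 in edgeR).

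**Figure D4:**
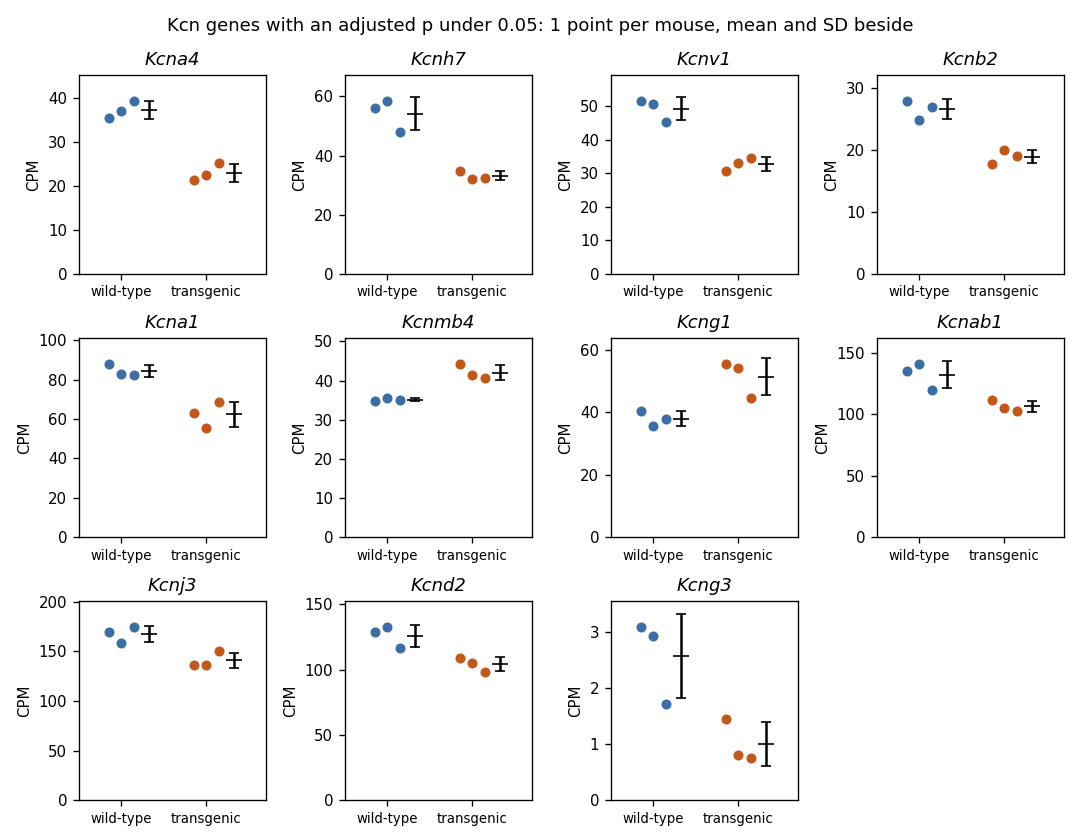
CPM of the 11 Kcn genes with an adjusted p under 0.05 in edgeR, with 1 point per mouse and the mean and SD beside, on axes that start at 0. In each panel the 3 transgenic points lie on one side of the 3 wild-type points.

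The Kcnb genes code for the Kv2 delayed rectifiers, and 1 of the 2 fell. Kcnb2 (chr1:15287254-15723750, plus strand), the Kv2.2 subunit, stood at 28.0, 24.9 and 27.0 CPM in the wild-type and at 17.8, 20 and 19.1 CPM in the transgenic libraries. The groups did not overlap. Kcnb2 fell by 28.9%, a log2 fold change of -0.49 ± 0.0702 (SE) with an adjusted p of 0.0169 in edgeR. Without wild-type replicate 1 or transgenic replicate 3 it did not pass, with adjusted p of at most 0.0959 in edgeR. With GC offsets and the replicate block the adjusted p of Kcnb2 was 0.0619.

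The silent subunits carry no current alone and alter Kv2 channels when they join them. Of the 9 tested genes of the Kcnf, Kcng, Kcns and Kcnv groups, 2 fell and 1 rose. Kcnv1 (chr15:45106284-45114920, minus strand), the Kv8.1 subunit, stood at 51.6, 50.7 and 45.3 CPM in the wild-type and at 30.5, 33.1 and 34.4 CPM in the transgenic libraries. The groups lay far apart. Kcnv1 fell by 33.7%, a log2 fold change of -0.59 ± 0.0703 (SE) with an adjusted p of 0.00981 in edgeR. Without wild-type replicate 1 or 2 it did not pass, with adjusted p of at most 0.0560 in edgeR. Kcng1 (chr2:168260117-168281736, minus strand), the Kv6.1 subunit, stood at 40.4, 35.6 and 37.7 CPM in the wild-type and at 55.5, 54.0 and 44.5 CPM in the transgenic libraries. Of the transgenic values, that of replicate 3 was the nearest to the wild-type. Kcng1 rose by 35.5%, a log2 fold change of 0.44 ± 0.0920 (SE) with an adjusted p of 0.0375 in edgeR.

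Kcng1 kept its call only when transgenic replicate 3 was the mouse left out, with adjusted p from 0.0350 to 0.137 over the 6 fits without 1 mouse. Kcng3 (chr17:83585957-83631895, minus strand), the Kv6.3 subunit, was a low gene at 3.10, 2.94 and 1.72 CPM in the wild-type and 1.46, 0.813 and 0.748 CPM in the transgenic libraries. The wild-type replicate 3 lay close to the transgenic values. Kcng3 fell by 60.7%, a log2 fold change of -1.35 ± 0.322 (SE), the largest among the 11, with an adjusted p of 0.0492 in edgeR. Without wild-type replicate 1 or 2 or transgenic replicate 2 or 3 it did not pass, with adjusted p of at most 0.187 in edgeR. Kcng3 also lost its call with DESeq2's size factors in edgeR (adjusted p = 0.0521), limma-voom (0.0532), GC offsets (0.0690) and gene length offsets (0.0533). Kcns1, Kcns2 and Kcns3 had log2 fold changes of -0.06, 0.11 and 0.18, and Kcng2, Kcng4 and Kcnf1 of 0.0048, -0.18 and -0.12, and none of these 6 passed.

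The Kcnd genes code for the Kv4 channels of the dendritic A-type current, and 1 of the 3 fell. Kcnd2 (chr6:21215503-21729805, plus strand), the Kv4.2 subunit, stood at 129, 133 and 116 CPM in the wild-type and at 109, 105 and 98.4 CPM in the transgenic libraries. Wild-type replicate 3 and transgenic replicate 1 were the nearest of the 2 groups. Kcnd2 fell by 17.2%, a log2 fold change of -0.27 ± 0.0636 (SE) with an adjusted p of 0.0467 in edgeR. Without wild-type replicate 1 or 2 or transgenic replicate 2 or 3 it did not pass, with adjusted p of at most 0.199 in edgeR. Kcnd2 also lost its call with DESeq2's size factors in edgeR (adjusted p = 0.0564), at least 10 counts in every library (0.0525), limma-voom (0.0514), gene length offsets (0.0589), GC offsets (0.191) and GC offsets with the replicate block (0.101). Kcnd1 had a positive log2 fold change, 0.28 ± 0.0829 (SE), with 12.7 to 14.0 CPM in the wild-type and 15.1 to 17.7 CPM in the transgenic libraries, and did not pass (adjusted p = 0.0828 in edgeR). Kcnd3 overlapped between genotypes, with a log2 fold change of -0.05 ± 0.0522 (SE). None of the 4 Kcnip genes, the calcium-binding auxiliary subunits of Kv4 channels, passed in edgeR, DESeq2 or limma-voom, with 3 at an unadjusted p under 0.05 in edgeR. Kcnip4 was the Kcnip gene with the smallest adjusted p, 0.149 in edgeR, at 45.8 to 47.7 CPM in the wild-type and 41.3 to 44.8 CPM in the transgenic libraries. Kcnip2, at 159 to 194 CPM in the wild-type and 192 to 223 CPM in the transgenic libraries, overlapped.

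The beta subunits of the Kv1 channels are coded by the 3 Kcnab genes, of which 1 fell. Kcnab1 (chr3:65109384-65378223, plus strand) codes for a subunit that confers fast inactivation. Kcnab1 stood at 136, 141 and 120 CPM in the wild-type and at 112, 106 and 103 CPM in the transgenic libraries. The lowest wild-type value was above each transgenic value. Kcnab1 fell by 19.4%, a log2 fold change of -0.31 ± 0.0674 (SE) with an adjusted p of 0.0406 in edgeR. Without wild-type replicate 1 or 2 or transgenic replicate 2 or 3 it did not pass, with adjusted p of at most 0.178 in edgeR. Kcnab1 also lost its call with gene length offsets (adjusted p = 0.0688 in edgeR), GC offsets (0.155) and GC offsets with the replicate block (0.0926). Kcnab2 stood at 549 to 599 CPM in the wild-type and at 588 to 718 CPM in the transgenic libraries, which overlapped, and had a log2 fold change of 0.15 ± 0.0810 (SE).

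The 4 Kcnc genes had no call in edgeR with the filter on low counts and all 6 mice, with 1 at an unadjusted p under 0.05 and positive log2 fold changes in 3 of 4. Kcnc4, the Kv3.4 subunit, had the largest positive log2 fold change among the Kcn genes that did not pass, 0.45 ± 0.166 (SE, adjusted p = 0.129 in edgeR). It stood at 63.1, 51.6 and 81.7 CPM in the wild-type and at 76.2, 97.2 and 95.2 CPM in the transgenic libraries, where wild-type replicate 3 overlapped with the transgenic values. Without wild-type replicate 3, Kcnc4 passed with a log2 fold change of 0.65 and an adjusted p of 0.0432 in edgeR. It also passed with DESeq2 (adjusted p = 0.0204) and in edgeR with no filter on low counts (adjusted p = 0.0421). Kcnc4 did not pass without any other mouse (adjusted p from 0.0858 to 0.297 in edgeR). Nor did it pass with the replicate block (0.0884 in edgeR), GC offsets (0.325 in edgeR) or limma-voom (0.119).

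The Kcnq genes, which code for the Kv7 channels of the M current, had no call among 5 in edgeR, with 1 at an unadjusted p under 0.05, and none in DESeq2 or limma-voom. Kcnq3 stood at 170 to 226 CPM in the wild-type and at 151 to 190 CPM in the transgenic libraries, with a log2 fold change of -0.29 ± 0.124 (SE, adjusted p = 0.173 in edgeR). The values of Kcnq3 overlapped between genotypes.

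The 8 Kcnh genes code for the ether-a-go-go, Erg and Elk channels, and 1 of them fell. Kcnh7 (chr2:62693414-63184287, minus strand), the Erg3 channel, stood at 56.0, 58.5 and 47.9 CPM in the wild-type and at 34.9, 32.2 and 32.5 CPM in the transgenic libraries. The 3 transgenic values lay close together, below the lowest wild-type value. Kcnh7 fell by 38.7%, a log2 fold change of -0.71 ± 0.0810 (SE) with an adjusted p of 0.00843 in edgeR. Without wild-type replicate 1 or transgenic replicate 3 it did not pass, with adjusted p of at most 0.0606 in edgeR. Kcnh5 (Eag2) had a log2 fold change of -0.83 ± 0.241 (SE, adjusted p = 0.0770 in edgeR), at 5.98, 5.12 and 3.78 CPM in the wild-type and 3.62, 2.07 and 2.67 CPM in the transgenic libraries. Kcnh3 (Elk2) went the other way without passing, at 81.7 to 92.6 CPM in the wild-type and 97.6 to 108 CPM in the transgenic libraries (adjusted p = 0.0699 in edgeR). With DESeq2 both Kcnh5 (adjusted p = 0.0180) and Kcnh3 (adjusted p = 0.0321) passed. Kcnh5 also passed in edgeR with no filter on low counts (adjusted p = 0.0360) and without transgenic replicate 1 (0.0452), and Kcnh3 with gene length offsets (0.0465). Neither passed in the other alternative fits. The adjusted p of Kcnh5 was 0.0761 with limma-voom and 0.111 in edgeR with GC offsets.

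Of the 12 tested Kcnj genes, the inward rectifiers, 1 fell and none rose in edgeR, while DESeq2 also called Kcnj11 as higher. Kcnj3 (chr2:55435970-55598145, plus strand) codes for the GIRK1 subunit of the channels that G protein-coupled receptors open. Kcnj3 stood at 169, 159 and 174 CPM in the wild-type and at 136, 136 and 150 CPM in the transgenic libraries. The groups did not overlap, with transgenic replicate 3 nearest to the wild-type. Kcnj3 fell by 15.9%, a log2 fold change of -0.25 ± 0.0573 (SE) with an adjusted p of 0.0450 in edgeR. In none of the 6 fits without 1 mouse (wild-type replicate 1, 2 or 3, or transgenic replicate 1, 2 or 3) did Kcnj3 pass, with adjusted p from 0.0690 to 0.189. It also did not pass with at least 10 counts in every library (adjusted p = 0.0507 in edgeR), gene length offsets (0.0633), GC offsets (0.136) or GC offsets with the replicate block (0.0939). The partner subunits Kcnj6 and Kcnj9 overlapped between genotypes, with log2 fold changes of -0.27 ± 0.127 and 0.17 ± 0.0788 (SE).

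The glial channel gene Kcnj10 stood at 279, 280 and 340 CPM in the wild-type and at 311, 308 and 300 CPM in the transgenic libraries, which overlapped. Kcnj11, the pore of the ATP-sensitive channel of neurons, was apart between genotypes at 30.6 to 35.1 CPM in the wild-type and 36.95 to 39.9 CPM in the transgenic libraries, without passing in edgeR (log2 fold change 0.23 ± 0.0648 SE, adjusted p = 0.0692 in edgeR and 0.0381 in DESeq2). Kcnj14 and Kcnj8 had the largest positive log2 fold changes after Kcnc4 among the genes that did not pass, 0.34 ± 0.156 and 0.32 ± 0.249 (SE). Both were low, at 1.13 to 1.37 and 1.37 to 2.27 CPM in the wild-type and 1.49 to 1.66 and 1.65 to 2.74 CPM in the transgenic libraries, and Kcnj8 overlapped.

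The 10 tested Kcnk genes, which code for two-pore leak channels, had no call in edgeR and none at an unadjusted p under 0.05, and with DESeq2 and limma-voom no Kcnk gene passed either. Their log2 fold changes ran from -0.27 (Kcnk5) to 0.14 (Kcnk4), with a median of -0.04. Kcnk1, the highest per length, stood at 73.7, 73.8 and 81.7 CPM in the wild-type and at 65.2, 71.5 and 76.8 CPM in the transgenic libraries, which overlapped. Kcnk9 and Kcnk2, other leak channels of neurons, had log2 fold changes of -0.04 ± 0.149 and -0.10 ± 0.0754 (SE).

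Among channels opened by calcium or sodium, 1 gene rose. Kcnmb4 (chr10:116417861-116473878, minus strand) codes for the beta 4 subunit, the neuronal auxiliary subunit of the big-conductance channel. Kcnmb4 stood at 34.7, 35.5 and 35.0 CPM in the wild-type and at 44.3, 41.3 and 40.6 CPM in the transgenic libraries. The wild-type values were within 1 CPM of each other, and each transgenic value was above them. Kcnmb4 rose by 19.9%, a log2 fold change of 0.26 ± 0.0514 (SE) with an adjusted p of 0.0326 in edgeR. It passed in 1 of the 6 fits without 1 mouse, that without transgenic replicate 1. Without wild-type replicate 1, 2 or 3 or transgenic replicate 2 or 3 it did not pass, with adjusted p of at most 0.144 in edgeR. With the replicate block the adjusted p of Kcnmb4 was 0.0626.

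The pore gene Kcnma1 did not pass, at 300, 301 and 277 CPM in the wild-type and 271, 263 and 268 CPM in the transgenic libraries, with a log2 fold change of -0.13 ± 0.0484 (SE, adjusted p = 0.131 in edgeR) that turned to 0.03 with gene length offsets. Kcnmb1, the beta subunit of smooth muscle, stood at 1.89 to 2.68 CPM in the wild-type and 0.962 to 1.63 CPM in the transgenic libraries, also without passing. None of the 4 Kcnn genes passed in edgeR with all 6 mice, with 2 at an unadjusted p under 0.05, nor in DESeq2 or limma-voom. Kcnn2 stood at 70.4 to 72.0 CPM in the wild-type and 59.6 to 68.4 CPM in the transgenic libraries (adjusted p = 0.116 in edgeR, and 0.0344 without transgenic replicate 1). Kcnn4, with a log2 fold change of -0.81 ± 0.360 (SE), was below 1 CPM in each library, at 0.379 to 0.478 in the wild-type and 0.129 to 0.341 in the transgenic libraries. Kcnt2, a sodium-activated channel, lay just outside the threshold with an adjusted p of 0.0581 in edgeR, at 24.1 to 32.7 CPM in the wild-type and 19.97 to 21.3 CPM in the transgenic libraries. Kcnt2 passed with DESeq2 (adjusted p = 0.0120), in edgeR with no filter on low counts (0.0270) and without wild-type replicate 3 (0.0360). In the other alternative fits Kcnt2 did not pass.

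In the 11 genes that were not tested, no library held more than 6 counts, and Kcnj1 and Kcnmb3 had 0 counts in all libraries. The other 9 were Kcna7, Kcna10, Kcne1, Kcnj15, Kcnk7, Kcnk15, Kcnk16, Kcnk18 and Kcnv2. A count of 0 allows up to 3 counts, which is 0.0571 to 0.0802 CPM in these libraries, for counting error only. In edgeR with no filter on low counts 9 of the 11 had a test, and their adjusted p ran from 0.417 to 0.978. The 3 transgenic counts of Kcna10 (4, 5 and 4) were above the 3 wild-type counts (0, 3 and 2), with the adjusted p of 0.417. At counts this low, a difference between genotypes was not detected in these genes. Of the 81 tested genes, 13 had a mean below 100 counts per library.

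Genes whose products work with or beside potassium channels were read from the same fit as a list of 29, of which 27 were tested. There were 2 that fell and none that rose in edgeR (7.41%, against 7.1% of all genes, a share near the background). At an unadjusted p under 0.05 there were 11 of the 27 (40.7%, against 27.8% of all genes), 10 of them lower. Of the 27, 20 had a negative log2 fold change, against 9871 of the 19087 genes tested. The median log2 fold change was -0.13 over the 27 and -0.01 over all genes tested. Akap9, a scaffold that binds the Kcnq1 channel and kinases, stood at 103, 102 and 93.9 CPM in the wild-type and 80.1, 76.6 and 81.7 CPM in the transgenic libraries. The groups were apart, and Akap9 had a log2 fold change of -0.33 ± 0.0521 (SE) with an adjusted p of 0.0212 in edgeR. Adam23, a neuronal receptor for the secreted protein Lgi1, stood at 141 to 149 CPM in the wild-type and 120 to 131 CPM in the transgenic libraries, with a log2 fold change of -0.21 ± 0.0487 (SE) and an adjusted p of 0.0487 in edgeR. With GC offsets neither passed, at adjusted p of 0.0617 for Akap9 and 0.110 for Adam23. Without wild-type replicate 1 or 2 or transgenic replicate 3, 0 genes of the list passed and without transgenic replicate 2 there was 1, in fits that called at most 0.978% of all genes. Without wild-type replicate 3, where 5.28% of all genes passed, there were 3.

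Fold changes moved with the base composition of the transcripts. Over the 81 Kcn genes Spearman's correlation between the log2 fold change and the GC content of the longest transcript was 0.446, against 0.383 over all tested genes, where the points share the same 6 libraries. The 34 Kcn genes below 50% GC had log2 fold changes with a median of -0.18, and the 47 at or above 50% with a median of 0.05, against -0.09 and 0.08 for all tested genes. Of the 9 genes that fell, 7 lay below 50% GC, and the 9 ran from 39.3% for Kcnb2 to 52.2% for Kcng3. Of the 2 that rose, Kcnmb4 had 44.3% and Kcng1 57.6%.

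**Figure D5:**
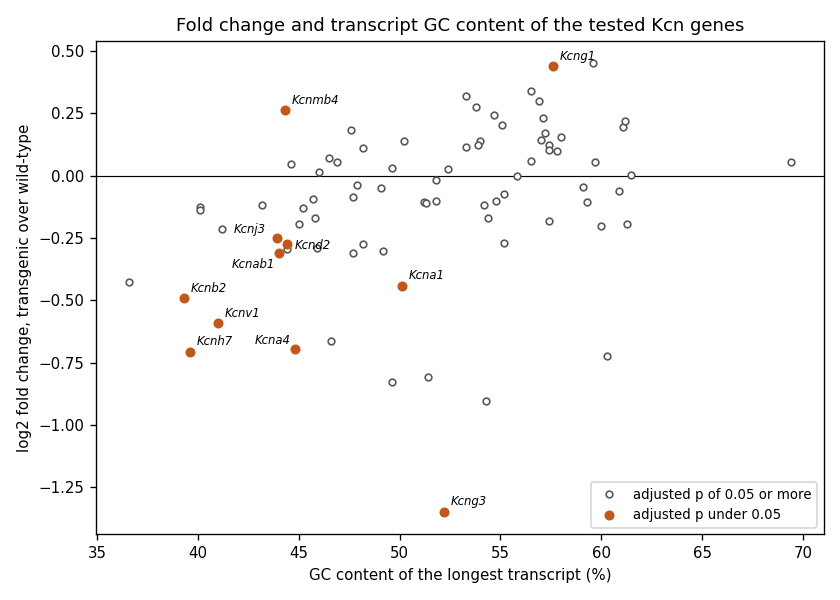
Log2 fold change, transgenic over wild-type, against the GC content of the longest transcript in percent for the 81 tested Kcn genes, with filled points for an adjusted p under 0.05 in edgeR. Most of the genes that fell lie at the left, below 50% GC, while Kcnmb4 lies above 0 at 44.3%.

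When the trend on GC content was removed from each library by offsets, 7 of the 81 Kcn genes passed (8.64%, against 2.14% of all genes). Of the 11 genes, 6 kept their call: Kcna4 (log2 fold change -0.62, adjusted p = 0.00745 in edgeR), Kcnh7 (-0.54), Kcnv1 (-0.45), Kcnb2 (-0.32), Kcna1 (-0.45) and Kcnmb4 (0.35). Kcnh2 (Erg1), at 29.5 to 34.3 CPM in the wild-type and 27.5 to 28.8 CPM in the transgenic libraries, passed only there among the fits with all 6 mice, with a log2 fold change of -0.34 and an adjusted p of 0.0425 in edgeR. Kcng1, Kcnab1, Kcnj3, Kcnd2 and Kcng3 lost their call, with adjusted p of 0.0914, 0.155, 0.136, 0.191 and 0.0690 in edgeR. Their log2 fold changes with these offsets were 0.33 for Kcng1, -0.22 for Kcnab1, -0.16 for Kcnj3, -0.19 for Kcnd2 and -1.40 for Kcng3, each in the direction seen without offsets. Spearman's correlation between the log2 fold change and GC content over the Kcn genes was then 0.105. With offsets for gene length, 8 of the 81 Kcn genes passed (9.88%, against 6.0% of all genes), and 7 of these were among the 11. Spearman's correlation between the log2 fold change and gene length was -0.192 over the Kcn genes.

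Marker lists of cell types that a dissected hippocampus can hold, chosen with earlier results of these data known, were read beside these values. Of 27 tested choroid plexus markers 26 were lower in transgenic mice (96.3%, against 7.1% of all genes). Their summed levels were 4180 to 6372 CPM in the wild-type and 711 to 978 CPM in the transgenic libraries. Markers of septum and striatum summed to 191 to 413 CPM in the wild-type and 153 to 179 CPM in the transgenic libraries. In edgeR 0 of 9 were called and 3 had an unadjusted p under 0.05 (33.3%, against 27.8% of all genes). Ependymal markers summed to 51.0 to 71.5 CPM in the wild-type and 34.5 to 46.0 CPM in the transgenic libraries. Of the 7 tested, 1 was lower (14.3%, against 7.1% of all genes). Thalamic markers summed to 202 to 274 CPM in the wild-type and 164 to 204 CPM in the transgenic libraries, which overlapped. Of the 13 tested, 1 was lower (7.69%, near the 7.1% of all genes). Of 14 interneuron markers 3 were lower (Gad2, Reln and Erbb4; 21.4%, against 7.1% of all genes), with sums of 1384 to 1694 CPM in the wild-type and 1223 to 1547 CPM in the transgenic libraries, which overlapped. With GC offsets the 26 choroid plexus calls remained in number, and no interneuron, thalamic or ependymal marker passed, with adjusted p of 0.0690 for Gad2, 0.0529 for Reln and 0.0781 for Erbb4 in edgeR. No marker of any of these lists was at 0 in all libraries. Their part in the Kcn values was not tested.

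For the cells of the hippocampus itself, the sums of the lists for CA3, astrocytes, oligodendrocytes, microglia and vascular cells overlapped between genotypes, as did those for CA1. One CA1 marker (of 9) and one CA3 marker (of 10) were lower, 1 of 10 vascular markers was higher (of these 3, the CA1 marker alone passed with GC offsets), and 0 of 10 were called for astrocytes, oligodendrocytes and microglia. Granule cell markers of the dentate gyrus summed to 453 to 480 CPM in the wild-type and 483 to 567 CPM in the transgenic libraries, with 0 of 10 called in edgeR and 0 at an unadjusted p under 0.05. Of the CA1, CA3 and granule cell lists CA3 had the lowest sums, and these were at least 439 CPM in each library.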

How the data were processed

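Poly(A) RNA from 6 hippocampi was sequenced, per the labels as a paired-end run but with a read length of 1 x 76 bp, so the read layout is not settled by the labels. The authors deposited raw counts, the number of fragments (read pairs, if the run was paired) assigned to each gene by featureCounts with strand kept (setting 2), primary alignments only and a mapping quality of at least 3, after Trimmomatic and STAR on mm10. The annotation was Ensembl 95 of GRCm38. The deposited file also gives each gene's exonic length.

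Gene symbols, positions, transcript GC content and protein-coding status were taken from GENCODE M21, in which 54809 of 54838 genes were found. The 92 members and the lists of partner and marker genes were chosen with earlier results of these data known. The genotype comparison used the quasi-likelihood test of edgeR (edgeR 4.0.16, R 4.3.3) on TMM-scaled counts after filterByExpr with a minimum count of 10, in place of the NOISeq test of the study, which was not used here. P-values were adjusted by Benjamini-Hochberg over all 19087 genes. CPM were relative to the scaled library total, and FPKM used the deposited lengths and library totals. Named were Orai1 and Thy1, each Kcn gene with an adjusted p under 0.05, the highest gene per length of each subfamily, the 3 largest changes in each direction among the other tested Kcn genes, and each partner gene with an adjusted p under 0.05. A few of these genes are left out of the text. Other genes were named after their values were seen.

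Alternatives were DESeq2's size factors, total counts and upper quartile scaling, no filter, at least 10 counts in every library, DESeq2 1.42.0, limma-voom (limma 3.58.1), each mouse left out in turn, a replicate block, and offsets from a loess curve (span 0.5) on GC content or gene length. The fits were tested on simulated data in which 200 genes had a log2 fold change of 1 in either direction. Of the calls at an adjusted p under 0.05, 9.09% were false with DESeq2, against 3.28% with edgeR and 3.30% with limma-voom. These simulated counts had the same dispersion for each gene. Wild-type totals were 52497799, 42154842 and 37710188 counts and transgenic totals 47027279, 38094114 and 37414241. Each library is a separate mouse, and no batch is given in the sources used here. Tables were prepared in Python 3.11.15 with pandas 2.3.3, and drawn with matplotlib 3.10.9.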

Additional observations from a re-analysis of the deposited data

How the results depend on the processing

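In the 17 alternative fits none of the 11 Kcn genes changed direction. The number of Kcn genes past the threshold was 11 and became 17 with DESeq2's Wald test, 7 with GC offsets, 7 with GC offsets and a replicate block, and 1 to 13 without 1 mouse. With the replicate block alone it was 10, without Kcnmb4. Same-numbered mice are separate animals. Their deviations correlated at -0.36 to 0.40 over 3 pairs, against -0.59 to 0.54 over the 6 differently numbered pairs. Deviations from a shared genotype mean depend on each other, so the correlations cannot decide whether the numbers pair the mice. The main fit did not use the numbers as pairs. Over all genes 1355 passed, against 2072 with DESeq2, 738 with the replicate block, 408 with GC offsets, 475 with both and 77 to 1149 without 1 mouse. The median log2 fold change of the Kcn genes, -0.07, was -0.0164 with gene length offsets and -0.0716 to -0.0313 without 1 mouse. Partner genes past the threshold, 2, numbered 1 with DESeq2's size factors, 4 without a filter, 1 with at least 10 counts in every library, 6 with DESeq2, 1 with limma-voom, 0 with GC offsets, 0 with GC offsets and the replicate block, 0 with length offsets and 0 to 3 without 1 mouse. Small differences turned in sign for Kcnj10 (-0.001887 and -8.329e-05 without wild-type replicate 1 or 2, and up to 0.1364 without replicate 3) and for Kcnma1 (0.0295 with length offsets). The cause was not tested. Depth limits the 11 untested genes and the 13 tested ones with a mean below 100 counts per library.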

Other observations

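Some Kcn genes, chosen after their values were seen, had 1 wild-type library nearer to 2 transgenic libraries than to the other wild-type ones, along the split given by the correlations of deviations over all genes. Kcnip3, a calcium-binding auxiliary subunit of Kv4 channels, stood at 57.1 and 53.6 CPM in wild-type replicates 1 and 2 and at 59.4 CPM in transgenic replicate 1, but at 83.2 CPM in wild-type replicate 3 and at 85.5 and 84.5 CPM in transgenic replicates 2 and 3. Kcne1l, an auxiliary subunit gene, stood at 2.08 and 2.56 CPM in wild-type replicates 1 and 2, 2.70 CPM in transgenic replicate 1, 5.87 CPM in wild-type replicate 3 and 4.30 and 4.19 CPM in transgenic replicates 2 and 3. Summed astrocyte markers were 5249 and 5321 CPM in wild-type replicates 1 and 2 and 5172 CPM in transgenic replicate 1, against 7079 CPM in wild-type replicate 3 and 6406 and 6299 CPM in transgenic replicates 2 and 3. Slc1a2 alone stood at 2852 to 4020 CPM, and not each astrocyte marker followed the split. Aldh1l1 differed little, at 42.2 to 47.25 CPM over the 6 libraries. Fgfr3 ran the other way, at 120.7 to 123.1 CPM in the former libraries and 110.2 to 114.8 CPM in the latter. Summed microglia markers were 324, 345 and 320 CPM in the first 3 of these libraries and 456, 498 and 481 CPM in the last 3. What these libraries share was not tested.

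Non-coding genes at Kcn loci were read too, from fragments counted by strand. Kcnq1ot1, the long antisense RNA of the imprinted Kcnq1 locus, stood at 37.8, 38.0 and 36.9 CPM in the wild-type and at 28.8, 33.3 and 34.0 CPM in the transgenic libraries. Its groups did not overlap, and the log2 fold change was -0.23 ± 0.0706 (SE) with an adjusted p of 0.0855 in edgeR, and -0.08 with GC offsets. Kcnmb4os2, antisense to Kcnmb4, stood at 2.96, 2.82 and 2.64 CPM in the wild-type and at 3.07, 3.41 and 3.15 CPM in the transgenic libraries. Its log2 fold change was 0.19 with an adjusted p of 0.353 in edgeR, and 0.00167 with GC offsets.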
